A study of Mus musculus with 3 samples.

Results

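The genes described here are 10 genes of the endothelin, renin-angiotensin and adrenomedullin systems of mouse skin wounds: Edn1, Ednra, Ednrb, Ece1, Ace, Agtr1a, Agt, Adm, Ramp2 and Calcrl. They were chosen by name with their levels by day and by cell class already known, so those levels are a description and carry no test. All 10 were found by Ensembl identifier among the 32285 genes of the 3 count matrices. The matrices came from single-cell RNA-Seq of wounds of adult male C57BL/6J mice, wild type and untreated apart from the wound, collected on Days 3, 7 and 14 after injury. The series names an incisional injury, whereas the methods of the study describe full-thickness punch wounds in the back skin whose tissue was pooled before it was dissociated with enzymes. There was 1 library per day. No p-value can be given for a difference between days, and every ratio between days below compares libraries and not conditions.

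Endothelins and angiotensin II are short peptides that constrict vessels, whereas adrenomedullin relaxes them and keeps their walls tight. Each is cut from a larger precursor, and each acts through receptors of the G protein-coupled family on vessel walls and on other cells. Endothelin and angiotensin II are also known to act on fibroblasts, where they favour contraction and matrix production, and adrenomedullin is known as a gene that low oxygen induces.

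After filtering and removal of likely doublets, 4360, 19590 and 13510 cells remained on Days 3, 7 and 14, with 34729158, 100364561 and 97726313 unique molecular identifiers (UMIs, each a captured transcript molecule). A level is given in CPM, the usual scale of sequencing counts, for which the UMIs of the gene were divided by the total of its class and day, with its 95% Poisson interval. All intervals cover counting error only. Cells were grouped into 30 clusters without use of the 10 genes or of the other genes of their pathways, and 13 classes were named from standard markers, while 2 clusters stayed unnamed. A further cluster of 146 cells held Schwann cell and melanocyte markers alike, and its cells were split by whether at least 3 melanocyte markers were detected in them. The libraries shared few cell barcodes, at most 111 between any pair. Day 3 stood apart in its makeup. Its 499 fibroblast-like cells held 55.4% of all UMIs at a median of 37849 UMIs per cell, against medians of 10086 on Day 7 and 9918 on Day 14, and it held 10 endothelial cell-like and 10 pericyte-like cells. Those classes had 188 and 178 cells on Day 7 and 187 and 427 on Day 14, and every marker in their lists of 10 and 8 genes was detected on each day. On Day 3 the 10 endothelial cell-like cells held 176824 UMIs at a median of 2617, so the deeper cells among them carried most of that sum.

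**Figure D1:**
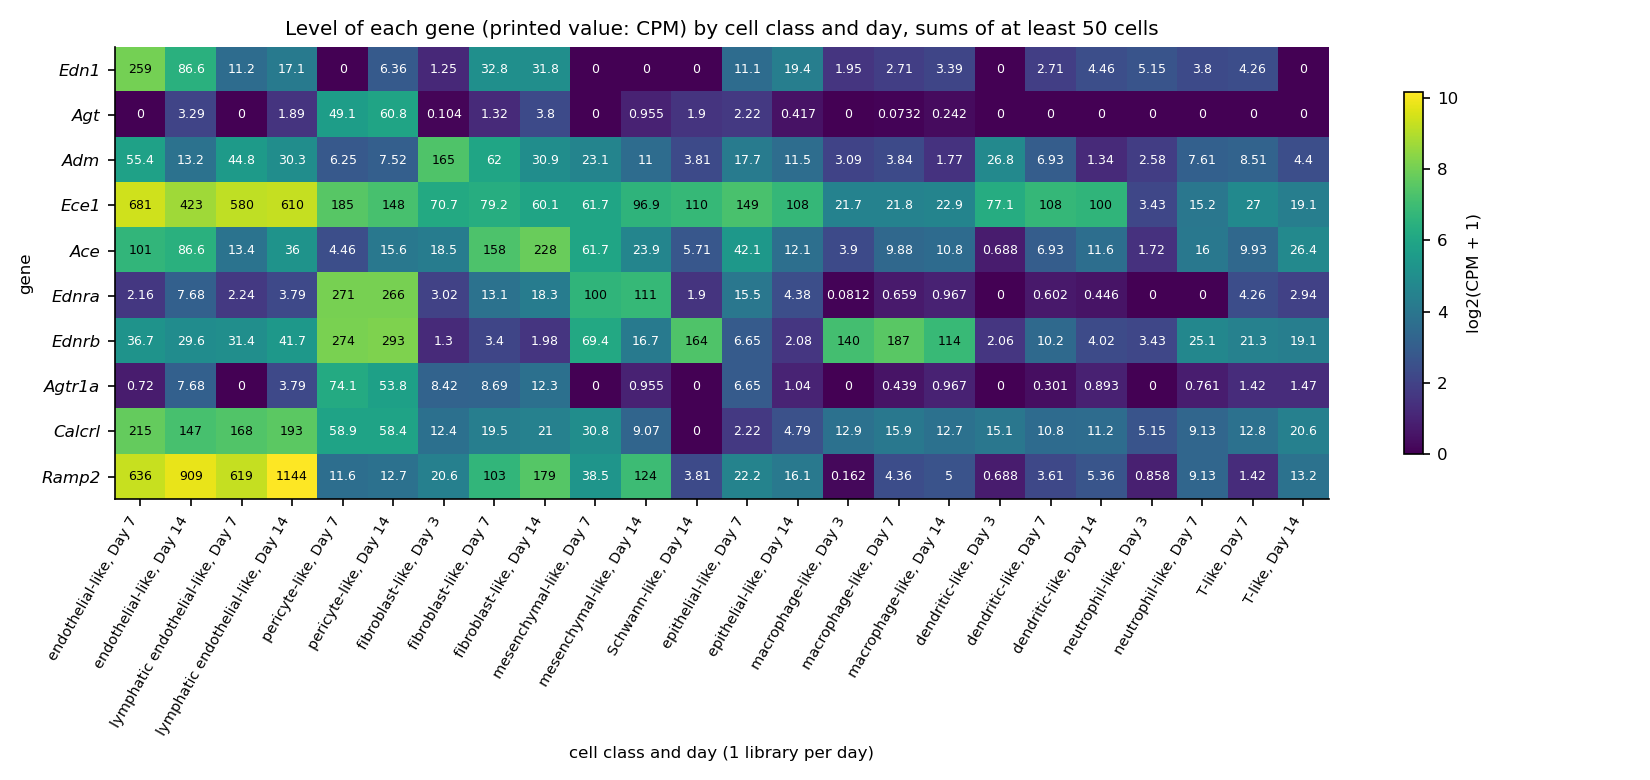
Level of each gene (rows) in each cell class and day with at least 50 cells (columns), with colour as log2(CPM + 1) and the CPM printed in each field. Edn1, Ece1, Calcrl and Ramp2 were highest in a vessel-lining class on Days 7 and 14, Agt, Ednra, Ednrb and Agtr1a in pericyte-like cells, and Ace and Adm in fibroblast-like cells.

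Edn1 (ENSMUSG00000021367, chr13:42301476-42307990, plus strand, GRCm38) encodes the precursor of endothelin, classically a product of the endothelium. In endothelial cell-like cells it stood at 294 CPM on Day 3 (interval 220 to 386, from 52 UMIs in 10 cells), 259 CPM on Day 7 (233 to 287, 360 UMIs) and 86.6 CPM on Day 14 (68.6 to 108, 79 UMIs). The Day 14 level was thus 0.334 times that of Day 7 (0.259 to 0.428), and the intervals of these days did not overlap. In fibroblast-like cells it stood at 1.25 CPM on Day 3 (0.8 to 1.86, 24 UMIs), 32.8 CPM on Day 7 (31.4 to 34.3, 2096 UMIs) and 31.8 CPM on Day 14 (30.5 to 33.2, 2270 UMIs). The level in CPM was higher in endothelial cell-like than in fibroblast-like cells, by 7.89 times on Day 7 (7.04 to 8.83) and 2.72 times on Day 14 (2.15 to 3.41). By number of molecules the order was the opposite, since fibroblast-like cells held 82% of the Edn1 UMIs on Day 7 and 90.3% on Day 14, against 22.6% on Day 3, when endothelial cell-like cells held 49.1%. Of the UMIs of all genes, fibroblast-like cells held 55.4%, 63.6% and 73% on Days 3, 7 and 14. On Day 3 the classes with at least 50 cells held no more than 5.15 CPM of Edn1, in neutrophil-like cells. In pericyte-like cells Edn1 had no UMI on Days 3 and 7, for which the floor of 3 counts on Day 7 stands at 2.68 CPM and the Poisson limit at 3.29 CPM, and 11 UMIs on Day 14.

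Agt (ENSMUSG00000031980, chr8:124556534-124569706, minus strand) encodes angiotensinogen, the precursor that renin and then Ace cut to angiotensin II. Its molecules were few. All kept cells together held 5, 142 and 388 of them on Days 3, 7 and 14, or 0.144, 1.41 and 3.97 CPM. Pericyte-like cells held it at 10.2 CPM on Day 3 (2.11 to 29.9, 3 UMIs), 49.1 CPM on Day 7 (37 to 63.9, 55 UMIs) and 60.8 CPM on Day 14 (49.7 to 73.5, 105 UMIs). On Day 14 this was 16 times the level in fibroblast-like cells (12.6 to 20.1), the class that came next. Fibroblast-like cells, in turn, were at 0.104 CPM on Day 3 (2 UMIs), 1.32 CPM on Day 7 (84 UMIs) and 3.8 CPM on Day 14 (271 UMIs). The Day 14 level in them was 2.89 times that of Day 7 (2.25 to 3.73), whereas in pericyte-like cells the same ratio was 1.24 (0.885 to 1.75), a difference not detectable at this depth.

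Adm (ENSMUSG00000030790, chr7:110627661-110629820, plus strand) encodes adrenomedullin. Fibroblast-like cells held most of its UMIs on every day, as they did of the UMIs of all genes. Their level was 165 CPM on Day 3 (160 to 171, 3179 UMIs), 62 CPM on Day 7 (60.1 to 64, 3957 UMIs) and 30.9 CPM on Day 14 (29.7 to 32.3, 2207 UMIs). Each day lay below the one before, by 2.67 times from Day 3 to Day 7 (2.54 to 2.8) and by 2 times from Day 7 to Day 14 (1.9 to 2.11). The order of days was the same in endothelial cell-like cells, with 147 CPM on Day 3 (26 UMIs), 55.4 CPM on Day 7 (77 UMIs) and 13.2 CPM on Day 14 (12 UMIs). The Day 3 value there rests on 10 cells of very unequal depth. In dendritic cell-like cells the 3 levels were 26.8, 6.93 and 1.34 CPM, from 39, 23 and 3 UMIs. In macrophage-like cells Adm was low throughout, at 3.09, 3.84 and 1.77 CPM. On Day 7 the fibroblast-like level exceeded the endothelial cell-like one by 1.12 times with an interval that includes no difference (0.892 to 1.42). On Day 14 it exceeded that of lymphatic endothelial cell-like cells, 30.3 CPM, by 1.02 times, again with no detectable difference (0.627 to 1.79).

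Adm was set beside 12 genes known to respond to low oxygen, among them Vegfa, Slc2a1, Pgk1 and Ldha. In fibroblast-like cells the summed level of the 12 genes was 4122 CPM on Day 3, 1726 CPM on Day 7 and 1218 CPM on Day 14, in the same order as Adm. Of the 12, 9 were past 2-fold lower on Day 7 than on Day 3 and 6 on Day 14 than on Day 7, and the largest drop in the first step was that of Pgk1, a glycolytic enzyme, at 6.18 times. Of all genes tested in these cells, 10.9% and 11.1% were past 2-fold lower in these steps. Ankrd37 stood apart at 1.53 times higher on Day 7 (1.19 to 1.99), and Hk2 differed between successive days by 1.15 times at most. In endothelial cell-like cells the summed list was nearly level, at 1022 CPM on Day 7 and 993 CPM on Day 14, while Adm there differed by 4.21 times (2.28 to 8.51). A tip endothelial-like group, described below, held 59 of the 77 Adm UMIs of Day 7 and had 4 cells on Day 14. In macrophage-like cells the list went from 3017 CPM to 1376 CPM and 778 CPM, whereas Adm did not follow between Days 3 and 7, with a ratio of 1.25 (0.852 to 1.86). Adm was low there, at 3.09 CPM on Day 3 and 3.84 CPM on Day 7. How far free RNA from fibroblast-like cells enters these Adm levels was not tested. Whether low oxygen takes part in the Adm level was not tested.

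**Figure D2:**
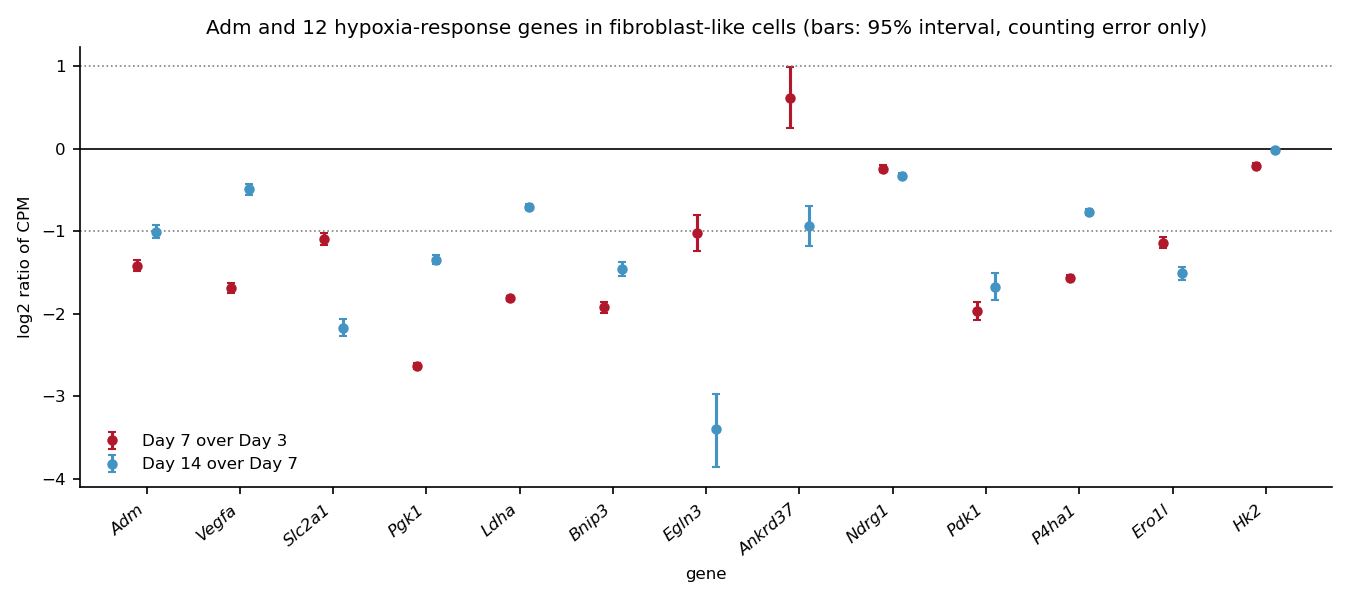
Log2 ratio of CPM in fibroblast-like cells (y axis) for Adm and 12 hypoxia-response genes (x axis), for Day 7 over Day 3 in red and Day 14 over Day 7 in blue, with 95% intervals for counting error and dotted lines at 2-fold. Adm lies below 0 in both steps, as do most of the list, with Ankrd37 above 0 in the first step.

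The 250 bases before the RefSeq start of Adm (GRCm38.p6, plus strand, chr7:110627407-110627656) are shown because Adm and that list were ordered alike by day in fibroblast-like cells. Capitals mark matches to GCGTG, a core of the site that hypoxia-inducible factors bind, read here on the reverse strand as CACGC. They lie 90 and 54 bases before the start.

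Adm: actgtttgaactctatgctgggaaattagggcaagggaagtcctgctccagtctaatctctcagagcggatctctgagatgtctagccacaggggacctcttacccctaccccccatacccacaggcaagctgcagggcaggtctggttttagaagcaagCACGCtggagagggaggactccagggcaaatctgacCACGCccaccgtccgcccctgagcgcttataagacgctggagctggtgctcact

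Both ACGTG and GCGTG were searched on both strands, and the other core, ACGTG, has no match in this window. Of all 32851 promoter windows of that length, 38.6% hold at least 1 match to either. Of the 10 genes, 8 had a window in the RefSeq table, 12 windows in all, of which 5 hold a match (in Adm, Ednrb and Ece1). The hypoxia-response genes had 13 windows, of which 11 hold a match. A match describes the letters and is not a site of binding.

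Ece1 (ENSMUSG00000057530, chr4:137862237-137965229, plus strand) encodes the endothelin-converting enzyme, which releases the active peptide. It was found in every class with at least 50 cells. Endothelial cell-like cells held 447 CPM on Day 3 (79 UMIs), 681 CPM on Day 7 (638 to 726, 946 UMIs) and 423 CPM on Day 14 (382 to 468, 386 UMIs). Lymphatic endothelial cell-like cells, with 51 cells on Day 7 and 51 on Day 14, held 580 CPM (512 to 656) and 610 CPM (545 to 680). The lead passed from the endothelial to the lymphatic class, at 1.17 times on Day 7 (1.02 to 1.35) and 1.44 times in the other direction on Day 14 (1.24 to 1.68), and the Day 7 order turned when each library was clustered alone. Pericyte-like cells followed at 130, 185 and 148 CPM, and fibroblast-like cells were at 70.7, 79.2 and 60.1 CPM. Macrophage-like cells were level at 21.7, 21.8 and 22.9 CPM.

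Ace (ENSMUSG00000020681, chr11:105967945-105989964, plus strand) encodes the enzyme that makes angiotensin II and is best known from the endothelium. Among classes with at least 50 cells it was highest here in fibroblast-like cells, at 18.5 CPM on Day 3 (16.6 to 20.5, 356 UMIs), 158 CPM on Day 7 (155 to 161, 10069 UMIs) and 228 CPM on Day 14 (224 to 231, 16257 UMIs). The Day 7 level was 8.52 times that of Day 3 (7.66 to 9.5), and the Day 14 level was 1.44 times that of Day 7 (1.41 to 1.48). Endothelial cell-like cells held 56.6 CPM on Day 3 (10 UMIs), 101 CPM on Day 7 (140 UMIs) and 86.6 CPM on Day 14 (79 UMIs), with no detectable difference between Days 7 and 14. The 10 endothelial cell-like cells of Day 3 thus stood above the fibroblast-like level. Fibroblast-like cells led them by 1.56 times on Day 7 (1.32 to 1.86) and 2.63 times on Day 14 (2.11 to 3.32). On Day 14 fibroblast-like cells held 97.4% of all Ace UMIs, beside 73% of the UMIs of all genes.

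Ednra (ENSMUSG00000031616, chr8:77663031-77724464, minus strand) encodes the endothelin receptor through which smooth muscle and pericytes contract. In pericyte-like cells it stood at 167 CPM on Day 3 (124 to 221, 49 UMIs), 271 CPM on Day 7 (242 to 304, 304 UMIs) and 266 CPM on Day 14 (242 to 291, 459 UMIs). In the class as a whole Days 7 and 14 were level, with a ratio of 0.979 (0.845 to 1.14), although different groups of pericyte-like cells mostly made it up on these days. Mesenchymal cell-like cells, named from genes such as Bmp4, Wif1 and Crabp1, came next at 100 CPM on Day 7 (13 UMIs) and 111 CPM on Day 14 (232 UMIs). Fibroblast-like cells were far lower, with each later library above the one before, at 3.02 CPM on Day 3 (58 UMIs), 13.1 CPM on Day 7 (835 UMIs) and 18.3 CPM on Day 14 (1308 UMIs).

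Ednrb (ENSMUSG00000022122, chr14:103814625-103844402, minus strand) encodes the other endothelin receptor, which also clears the peptide and is needed by melanocytes and neural crest cells. By number of molecules it belonged to macrophage-like cells, with 89.7%, 88% and 60.9% of the total on Days 3, 7 and 14. Those cells held 35.5%, 27.2% and 12.7% of the UMIs of all genes. Their level was 140 CPM on Day 3 (134 to 147, 1727 UMIs), 187 CPM on Day 7 (182 to 192, 5100 UMIs) and 114 CPM on Day 14 (108 to 120, 1414 UMIs). Day 14 was 0.611 times Day 7 (0.575 to 0.648). In CPM, pericyte-like cells were higher, at 549 CPM on Day 3 (468 to 641, 161 UMIs in 10 cells), 274 CPM on Day 7 (244 to 306, 307 UMIs) and 293 CPM on Day 14 (268 to 320, 507 UMIs). They led macrophage-like cells by 1.47 times on Day 7 (1.3 to 1.65), and Days 7 and 14 did not differ detectably in them, with a ratio of 1.07 (0.928 to 1.24). On Day 14 the 14 melanocyte-like cells held 54 UMIs, or 962 CPM, and the 124 Schwann cell-like cells held 86 UMIs, or 164 CPM. Fibroblast-like cells held between 1.3 and 3.4 CPM.

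Agtr1a (ENSMUSG00000049115, chr13:30336441-30382867, plus strand) encodes the main angiotensin II receptor of the mouse. Pericyte-like cells held 64.8 CPM on Day 3 (19 UMIs), 74.1 CPM on Day 7 (59 to 91.8, 83 UMIs) and 53.8 CPM on Day 14 (43.4 to 65.9, 93 UMIs). Fibroblast-like cells held 8.42 CPM on Day 3 (162 UMIs), 8.69 CPM on Day 7 (555 UMIs) and 12.3 CPM on Day 14 (878 UMIs). The pericyte-like level was 8.52 times the fibroblast-like one on Day 7 (6.68 to 10.7) and 4.37 times on Day 14 (3.49 to 5.42), but fibroblast-like cells, being many, held 84.5% and 87.5% of the molecules. Of the UMIs of all genes they held 63.6% and 73%. In macrophage-like cells Agtr1a had 0, 12 and 12 UMIs.

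Calcrl (ENSMUSG00000059588, chr2:84330626-84425411, minus strand) encodes the receptor that binds adrenomedullin when Ramp2 accompanies it to the cell surface. Endothelial cell-like cells held 102 CPM on Day 3 (18 UMIs), 215 CPM on Day 7 (192 to 241, 299 UMIs) and 147 CPM on Day 14 (123 to 174, 134 UMIs). Lymphatic endothelial cell-like cells held 168 CPM on Day 7 (132 to 211) and 193 CPM on Day 14 (158 to 235), and these neighbours in the order differed by 1.28 times on Day 7 with an interval that includes no difference (0.991 to 1.67), and on Day 14 the lymphatic level was higher by 1.31 times (1.01 to 1.71). Pericyte-like cells held 34.1, 58.9 and 58.4 CPM. Fibroblast-like cells held 12.4, 19.5 and 21 CPM, and macrophage-like cells 12.9, 15.9 and 12.7 CPM.

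Ramp2 (ENSMUSG00000001240, chr11:101246028-101259546, plus strand) encodes the membrane partner that makes Calcrl an adrenomedullin receptor. Endothelial cell-like cells held 260 CPM on Day 3 (46 UMIs), 636 CPM on Day 7 (595 to 680, 884 UMIs) and 909 CPM on Day 14 (848 to 973, 829 UMIs). Lymphatic endothelial cell-like cells held 619 CPM on Day 7 (276 UMIs) and 1144 CPM on Day 14 (604 UMIs). Fibroblast-like cells held 20.6 CPM on Day 3 (396 UMIs), 103 CPM on Day 7 (6584 UMIs) and 179 CPM on Day 14 (12800 UMIs). The endothelial and lymphatic levels did not differ detectably on Day 7, at 1.03 times (0.898 to 1.18), and on Day 14 the lymphatic level was higher by 1.26 times (1.13 to 1.4). In all 3 classes the later library was higher, and from Day 7 to Day 14 the ratios were 1.43 (1.3 to 1.57), 1.85 (1.6 to 2.14) and 1.74 (1.69 to 1.79). Calcrl, its partner, went the other way in endothelial cell-like cells, at 0.683 times (0.553 to 0.84). Ramp2 overlaps Vps25 on the same strand, which had 469 UMIs in all against 23062 for Ramp2.

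**Figure D3:**
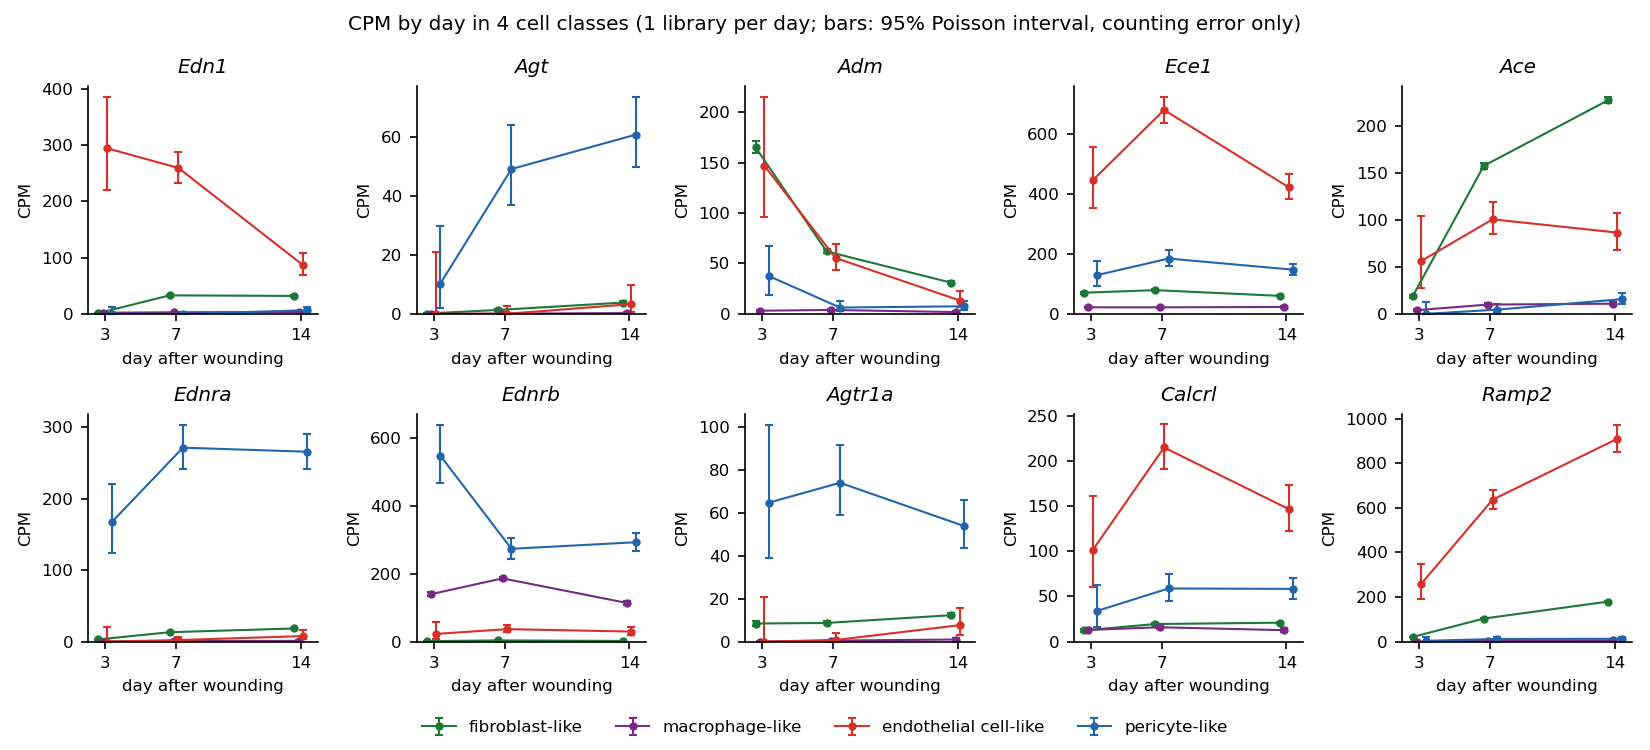
CPM (y axis) on Days 3, 7 and 14 (x axis) of each gene in pericyte-like, endothelial cell-like, fibroblast-like and macrophage-like cells, with 95% Poisson intervals. Points on Day 3 for endothelial cell-like and pericyte-like cells rest on 10 cells each, and Adm and Edn1 are lower on Day 14 than on Day 7 in endothelial cell-like cells while Ramp2 is higher.

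Over all cells, 5 of the 10 genes were past 2-fold higher on Day 7 than on Day 3 (Edn1, Ednra, Ace, Agt and Ramp2) and 1 was past 2-fold lower (Adm), where 13.3% and 9.13% of all genes tested were. Genes with at least 10 UMIs in both libraries together were counted, in this and the following comparisons. From Day 7 to Day 14, 1 was past 2-fold higher (Agt) and 1 lower (Ednrb), where 13.4% and 9.36% of all genes were. That total of 2 was 4 with size factors by the median of ratios and 5 with the mean of each cell's CPM. In such sums, fewer cells of a class and less RNA per cell cannot be told apart. The direction of Adm between Days 3 and 7 turned, to a log2 ratio of 0.06, when every cell was given the same weight, and that of Ece1 between Days 7 and 14 turned under 2 of the alternatives.

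Within fibroblast-like cells, 6 of the 10 were past 2-fold higher on Day 7 than on Day 3 (Edn1, Ednra, Ednrb, Ace, Agt and Ramp2) and Adm was past 2-fold lower, beside 13.2% and 10.9% of all genes tested in that class. The median log2 ratio of the 10 genes was 1.75 and that of all genes -0.07. From Day 7 to Day 14, Agt was past 2-fold higher and Adm past 2-fold lower, beside 9.54% and 11.1% of all genes, with Adm just past the limit and medians of 0.3 and -0.16. The Day 7 over Day 3 direction of Ednrb, which was low in this class, turned when each library was clustered alone. In macrophage-like cells 3 of the 9 genes with enough UMIs were past 2-fold higher on Day 7 than on Day 3 (Ednra, Ace and Ramp2) and none was lower, beside 14.8% and 5.18% of all genes. Those 3 had 1, 48 and 2 UMIs on Day 3. All 3 were higher in fibroblast-like cells, and how far free RNA from those cells enters these ratios was not tested. From Day 7 to Day 14, Agtr1a was past 2-fold higher, on 12 and 12 UMIs, and Adm lower, beside 7.48% and 7.3% of all genes. The medians of the 9 genes in these steps were 0.47 and 0.13, beside 0.04 and -0.1 for all genes.

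In endothelial cell-like cells, 1 of 8 genes was past 2-fold higher on Day 14 than on Day 7 (Ednra, on 7 and 3 UMIs) and 2 were past 2-fold lower (Edn1 and Adm), beside 5.91% and 13.5% of all genes. In pericyte-like cells, 2 of 10 were past 2-fold higher and none was lower, beside 8.02% and 17% of all genes. These were Ace, at 5 and 27 UMIs, and Edn1, at 0 and 11 UMIs and so at least 2.38-fold higher when set against a floor of 3 counts. Those 11 UMIs came from 4 cells, and the counting limit of that ratio was 1.63, which is below 2-fold, and its direction turned under 2 of the alternatives. The median log2 ratio of these genes was -0.43 in endothelial cell-like and 0.12 in pericyte-like cells, beside -0.18 and -0.23 for all genes. The genes that pericyte-like cells lead in, Agt, Ednra, Ednrb and Agtr1a, all stayed within 2-fold between Days 7 and 14 in the class as a whole. Different groups of pericyte-like cells, described below, mostly made up the class on these days. The totals of 2 past 2-fold in either direction between Days 7 and 14 in fibroblast-like, macrophage-like and pericyte-like cells were each 1 or 0 under several alternatives, and with a minimum of 50 CPM the totals between Days 3 and 7 were 3 in place of 6 over all cells, 3 in place of 7 in fibroblast-like and 0 in place of 3 in macrophage-like cells.

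**Figure D4:**
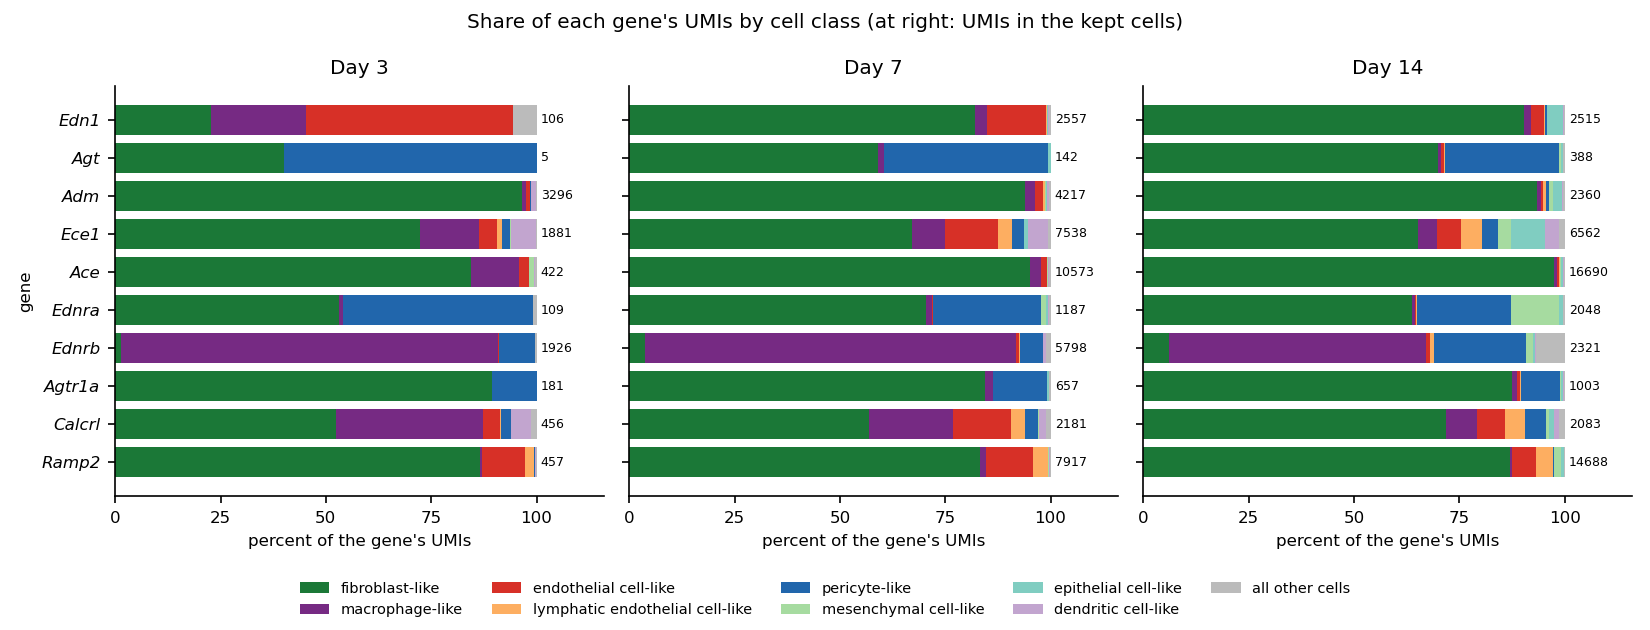
Percent of each gene's UMIs (x axis) captured from each cell class on Days 3, 7 and 14, with the number of UMIs in the kept cells printed at the right. Fibroblast-like cells hold the largest share on Days 7 and 14 for every gene except Ednrb, for which macrophage-like cells do. Of the UMIs of all genes, fibroblast-like cells held 63.6% on Day 7 and 73% on Day 14, so a large share alone does not set these genes apart.

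The fibroblast-like class was not one population, and different clusters made it up on different days. A cluster led within the class by the cell cycle genes Ube2c and Top2a and by Car4, and against all other clusters by Saa3, Cxcl5 and Timp1, held 74.7% of its cells on Day 3, 10.1% on Day 7 and 0.576% on Day 14. On Day 7 a cluster led by Prss35, Tnn and H19 held 45.9%, and on Day 14 a cluster led by Mgp, Cilp and Fbln7 held 53.1%. A cluster led by Akr1c18, Edn1 and Pla1a held 1.2%, 28.6% and 17.4%, and a cluster led by Gal, Wfdc12 and Ppp1r14a held 20.2% on Day 14. A last one, led by haemoglobin genes, had few UMIs per cell, with a median of 1397.

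Edn1 was concentrated in the Akr1c18 cluster, although Edn1 had no part in the clustering. That cluster held 125 CPM (121 to 130) and 82.2% of the Edn1 UMIs of the class in 21.8% of its cells, whereas the other 5 clusters lay between 1.59 and 20.6 CPM. Ace was also highest there over all days together, at 350 CPM, although on Day 7 alone it stood at 324 CPM against 326 CPM in the Mgp cluster. Ramp2 was highest there at 265 CPM and Calcrl at 43.8 CPM, while Ednra was lowest there, at 2.33 CPM. The cluster therefore held more Edn1 and less of its receptor Ednra than any of the other 5 fibroblast-like clusters. Ednra was highest in the Gal cluster, at 28.3 CPM over all days together. The 8 pericyte markers were also highest there among the 6 fibroblast-like clusters, at 520 CPM in sum. Agt was at 5.53 CPM there and 4.81 CPM in the Mgp cluster, which on Day 7 alone held 15.4 CPM. Adm was highest in the Ube2c cluster, at 129 CPM, and next in the Akr1c18 cluster, at 92.4 CPM, over all days together. That order rested on Day 3, since on Day 7 alone the Ube2c cluster held 55.5 CPM and the Akr1c18 cluster 106 CPM. The summed hypoxia-response genes were also highest in the Ube2c cluster, at 3536 CPM, but in the Akr1c18 cluster they were at 1202 CPM, below the Prss35 and Mgp clusters. These sums mix days, with 373 Day 3 cells in the Ube2c cluster against 6, 13 and 3 in the Akr1c18, Prss35 and Mgp clusters.

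**Figure D5:**
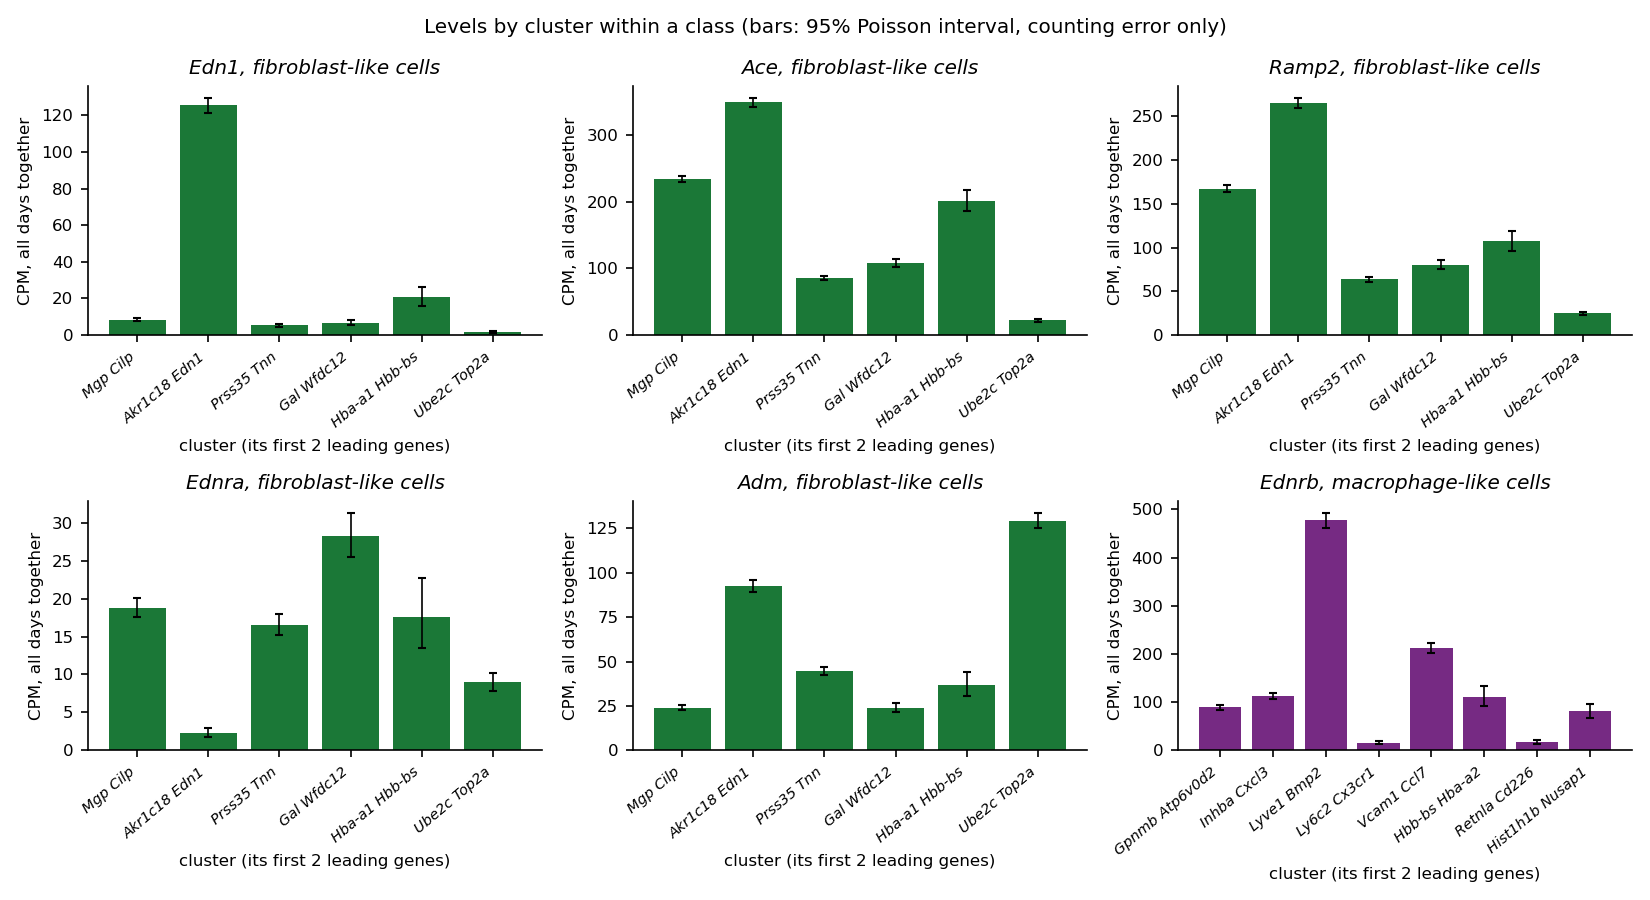
CPM over all days (y axis) of Edn1, Ace, Ramp2, Ednra and Adm in the 6 fibroblast-like clusters and of Ednrb in the 8 macrophage-like clusters (x axis, each cluster by its first 2 leading genes), with 95% Poisson intervals. Edn1 stands at 125 CPM in 1 fibroblast-like cluster, where Ednra is at 2.33 CPM, and Ednrb stands at 477 CPM in 1 macrophage-like cluster.

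Set side by side within clusters, some ratios between days held and others did not. Whether the cells of a cluster were in the same state on each day was not tested. In the Ube2c cluster, with 373 cells on Day 3 and 625 on Day 7, Adm was 3.04 times lower on Day 7, at 55.5 against 169 CPM. Ednra was 6.52 times higher there on Day 7 (4.76 to 9.06), at 18.9 against 2.9 CPM. By contrast Edn1 was 2.45 times higher (1.22 to 4.98), Ace 1.93 times (1.64 to 2.28) and Ramp2 1.65 times (1.4 to 1.94), where the class ratios were 26.3, 8.52 and 5.01. Agtr1a and Calcrl were lower in this cluster on Day 7, at 0.646 (0.459 to 0.895) and 0.764 times (0.584 to 0.991), whereas neither was lower in the class. The haemoglobin cluster, the other one with enough cells on Days 3 and 7, had few UMIs on Day 3 and went the other way for Adm, at 5.04 times higher on Day 7 (1.36 to 42.2, from 2 and 98 UMIs). Its Ace was 21.9 times higher (6.04 to 182, from 2 UMIs on Day 3) and its Ramp2 7.54 times (2.55 to 36.8, from 3 UMIs). From Day 7 to Day 14, Adm was lower in each of the Mgp, Akr1c18, Prss35 and haemoglobin clusters, at 0.404 to 0.675 times. Ramp2 was higher in the Mgp, Akr1c18 and Prss35 clusters, at 1.42 to 1.52 times, and level in the haemoglobin cluster, at 1.06 times (0.852 to 1.32).

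For Agt, Agtr1a, Ace and Edn1 the clusters differed from the class. In the Mgp cluster Agt was lower on Day 14 than on Day 7, at 3.93 against 15.4 CPM and 0.255 times (0.187 to 0.351), although the class as a whole was 2.89 times higher. Agtr1a was also lower in it, at 0.528 times (0.41 to 0.688), with the class at 1.42 times and the Akr1c18 cluster at 1.37 times (1.11 to 1.69). The Mgp cluster went from 400 cells on Day 7 to 3786 on Day 14. Ace was 0.695 times its Day 7 level in the Mgp cluster (0.654 to 0.739), 1.19 times in the Akr1c18 cluster (1.15 to 1.24) and level in the Prss35 cluster at 0.998 times (0.805 to 1.22), whereas the class ratio was 1.44. Edn1 was 1.3 times higher in the Akr1c18 cluster on Day 14 (1.22 to 1.39), with the class level at 0.969 times.

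Among macrophage-like cells, Ednrb set the clusters apart. A cluster led by Lyve1, Bmp2 and Fcna held 477 CPM (462 to 492) and 46.4% of the class's Ednrb UMIs in 15.9% of its cells. A cluster led by Vcam1, Ccl7 and Slamf7 held 212 CPM (202 to 223). The lowest were a cluster led by Ly6c2, Cx3cr1 and Gpr141, at 15.5 CPM (12.6 to 18.9), and one led by Retnla, Cd226 and Ear2, at 17.2 CPM (13.5 to 21.6). Lyve1 marks a resident macrophage type found along vessels, whereas Ly6c2 marks cells recently come from blood monocytes. The clusters these genes lead stood at opposite ends, but single genes do not settle the origin of a cluster. Most Day 3 macrophage-like cells, 80%, belonged to a cluster led by Inhba, Cxcl3 and Chil3, which held 112 CPM. That was above the median of 100 CPM over the 8 clusters. This cluster shared Ccr2 and Ms4a6c with the Ly6c2 cluster among the genes highest against all other clusters.

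The lower Ednrb level of macrophage-like cells on Day 14 was also seen inside their clusters. All 7 clusters with at least 50 cells on both days were lower on Day 14 than on Day 7, at 0.152 to 0.62 times, and only the interval of the Ly6c2 cluster included no difference (0.298 to 1.17). In the Lyve1 cluster the level was 243 CPM on Day 14 against 566 CPM on Day 7, or 0.429 times (0.389 to 0.474), and in the Vcam1 cluster 173 against 284 CPM. Between Days 3 and 7 the clusters went different ways. The class was 1.33 times higher on Day 7 (1.26 to 1.41), and so was the Lyve1 cluster, at 1.29 times (1.15 to 1.44). The Inhba cluster was lower, at 0.696 times (0.587 to 0.82), as was a cluster led by Gpnmb, Atp6v0d2 and Fabp5, at 0.54 times (0.443 to 0.663). The intervals of the Ly6c2 cluster and of one led by haemoglobin genes included no difference.

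The vessel-lining cells were clustered once more by themselves, into 8 groups of which 5 stayed unnamed. A venous endothelial-like group of 129 cells, named from Ackr1, Sele, Selp and Nr2f2, held Edn1 at 191 CPM on Day 7 (150 to 239) and 45.4 CPM on Day 14 (25.4 to 74.9). Its Ramp2 went from 654 to 1056 CPM and its Calcrl from 351 to 179 CPM, the same directions as in the whole class. A tip endothelial-like group of 57 cells, named from Apln, Esm1, Angpt2, Pgf and Cxcr4 though Chga and the haemoglobin gene Hbb-bs were its first leading genes, held Edn1 at 282 CPM (239 to 330) and Adm at 144 CPM (115 to 180), against 12.4 CPM of Adm in the venous group, over all days together. On Day 7 alone these levels were 117 and 17.8 CPM. Of the tip cells, 51 came from Day 7 and 4 from Day 14. Of the 77 Adm UMIs of the endothelial cell-like class on Day 7, 59 came from this group, which was nearly missing on Day 14. The venous group held 7 Adm UMIs on Day 7 and 2 on Day 14. The part of each group in the class ratio was not tested. The 5 unnamed groups held Edn1 at 85.5 to 332 CPM, with 307 CPM (216 to 423, 37 UMIs) and 332 CPM (248 to 436, 52 UMIs) in those of 68 and 22 cells, and the group of 68 stood at 187 CPM on Day 14 (99.8 to 321, 13 UMIs). The group of 68, at a median of 1344 UMIs per cell, had the keratin genes Krt15, Krt1 and Krt5 and also Ackr1 among its leading genes. In it 3 of the 5 venous markers, Ackr1, Sele and Selp, met the marker rule, so the venous-like group may not hold all venous cells. The group of 22 was led by Retnla, H2-Eb1 and H2-Aa, with C1qc also among its leading genes. Whether these 2 groups hold mixed cells was not tested. The lymphatic group of 61 cells held Edn1 at 27.8 CPM (14.8 to 47.5) and Ramp2 at 1181 CPM.

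The pericyte-like cells fell into 5 groups, none of which met the rule for a name. The makeup of the class differed by day. The group of 155 cells held 96 of Day 7 and 59 of Day 14, and that of 82 held 54 and 18. Those of 148, 127 and 103 cells held 2, 14 and 12 of Day 7 but 146, 113 and 91 of Day 14. Agt was highest, at 154 CPM (122 to 192), in a group of 127 cells led by Trmt61b, Nrip2 and Crispld2, in which 2 of the 5 smooth muscle markers, Myh11 and Lmod1, met the marker rule. It stood at 8.4 CPM (3.08 to 18.3) in a group of 148 cells led by Ccl11, Cxcl10 and Colec11. Ednrb was highest, at 719 CPM (635 to 813), in a group of 103 cells led by Ccl11, Stc1 and Cxcl10. Ednra and Agtr1a were highest in a group of 155 cells led by Ccl4, Spp1 and Hspa1b, at 392 CPM (343 to 446) and 118 CPM (92.2 to 150). In that group Ednrb stood at 406 CPM on Day 7 (349 to 470) and 113 CPM on Day 14 (65.6 to 180), although the class as a whole was level.

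Shares of cells with a UMI depend on depth, so they are given as captured and after thinning each cell to 500 UMIs. Edn1 was seen in 50.5% of endothelial cell-like cells on Day 7 (43.2 to 57.9), or 11.7% after thinning, and in 18.7% on Day 14, or 6.42% after thinning. In macrophage-like cells, at a median of 2544 UMIs per cell on Day 7 against 6126 in endothelial cell-like cells, it was seen in 0.655%, or 0.145% after thinning. In fibroblast-like cells it was seen in 10.2% on Day 7 and 7.97% on Day 14, or 1.67% and 1.38% after thinning. Ednrb was seen in 22.1% of macrophage-like cells on Day 7 and 18.9% on Day 14, or 7.95% and 5.12% after thinning, against 0.274% and 0.182% of thinned fibroblast-like cells. These shares keep the order of the levels in CPM.

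Calcrl forms an adrenomedullin receptor with Ramp2, and also with Ramp3, in the same cell, and the pair with Ramp2 was counted here. Both were seen in 60.6% of endothelial cell-like cells on Day 7 (53.3 to 67.7) and 33.7% on Day 14 (27 to 41), and in 16%, 11% and 12.5% of fibroblast-like cells on Days 3, 7 and 14, or 0%, 0.0805% and 0.112% after thinning. The higher captured share of fibroblast-like cells on Day 3 thus went with their greater depth. In macrophage-like cells they coincided in 0.0312% of cells on Day 7. After thinning, the endothelial cell-like share on Day 7 was 3.19% (1.18 to 6.82) and that on Day 14 was 1.6% (0.332 to 4.62), so at equal depth no difference between the days was detectable. Ednra and Ednrb were seen together in 27% of pericyte-like cells on Day 7 (20.6 to 34.1) and 21.1% on Day 14 (17.3 to 25.3), or 2.81% and 0.703% after thinning. Edn1 with Ece1, the precursor with its enzyme, was seen in 46.3% of endothelial cell-like cells on Day 7 (39 to 53.7) and 15% on Day 14 (10.2 to 20.9), or 4.26% and 2.14% after thinning, and in 5.89% and 3.79% of fibroblast-like cells, or 0.0322% and 0.126% after thinning, from 2 and 9 cells and in the other order.

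Free RNA from one class can appear in the droplets of another. Endothelial and pericyte markers were therefore counted beside several genes that those classes lead in. Ace and Adm, which fibroblast-like cells lead in, are not set beside fibroblast markers here. Those 8 markers summed to 73433 to 189862 CPM in the fibroblast-like clusters. In macrophage-like clusters they summed to 955 CPM in the Inhba cluster and up to 9383 CPM in the haemoglobin cluster. The 10 endothelial markers summed to 39.3 CPM in fibroblast-like cells on Day 7 and 38.5 CPM on Day 14, with none at 0, against 5587 and 4719 CPM in endothelial cell-like cells. Per 100 endothelial marker UMIs, fibroblast-like cells held 83.5 and 82.6 Edn1 UMIs, whereas endothelial cell-like cells held 4.64 and 1.84. For Ramp2 the same values were 262 and 466 against 11.4 and 19.3. In the Akr1c18 cluster the endothelial markers summed to 82.1 CPM beside 125 CPM of Edn1. The 8 pericyte markers summed to 10.6 and 16.9 CPM in macrophage-like cells, again with none at 0, against 10158 and 10090 CPM in pericyte-like cells, and per 100 of their UMIs macrophage-like cells held 1759 and 673 Ednrb UMIs against 2.7 and 2.91. For Ednrb in fibroblast-like cells on Day 7 the ratio was 2.81 per 100, close to the 2.7 of pericyte-like cells, at a level of 3.4 CPM. The other genes that pericyte-like cells lead in had more UMIs per 100 pericyte marker UMIs in fibroblast-like cells than in pericyte-like cells on Day 7, with 10.8 against 2.67 for Ednra, 7.19 against 0.729 for Agtr1a and 1.09 against 0.483 for Agt. In the fibroblast-like clusters the pericyte markers summed to between 84.6 CPM (Akr1c18 cluster) and 520 CPM (Gal cluster). Ndufa4l2, a marker of that list, was among the genes highest in the Gal cluster against all other clusters. The ratios to pericyte markers in fibroblast-like cells thus cannot separate free RNA from their own transcripts. How far free RNA enters any of these levels was not tested.

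Of the 6 other endothelin pathway genes, 3 reached 10 CPM in a class and day with at least 50 cells. Edn3, another endothelin, did so in mesenchymal cell-like cells on Day 14, at 29.6 CPM (22.7 to 38). Furin, a protease that trims precursors before Ece1 acts, was at 263, 163 and 196 CPM in macrophage-like cells. Mme, neprilysin, which degrades such peptides, was at 1.98, 6.61 and 13.6 CPM in fibroblast-like cells, past 2-fold higher in each step. Edn2, Ece2 and Kel stayed below 10 CPM in every such class.

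Of the 13 other renin-angiotensin genes, 8 reached that level. Enpep, which cuts angiotensin II further, was at 44.3, 55.3 and 58.4 CPM in pericyte-like cells, beside Agt and Agtr1a. Anpep, another aminopeptidase, was at 49.8, 72.4 and 49.3 CPM in fibroblast-like cells. Lnpep was highest in dendritic cell-like cells, at 364, 185 and 99.6 CPM, and Rnpep in macrophage-like cells, at 204, 120 and 63 CPM. Atp6ap2, the prorenin receptor, was highest in neutrophil-like cells on Day 3, at 266 CPM, and Agtrap in macrophage-like cells on Day 7, at 56.8 CPM. Cma1, a chymase of mast cells that also makes angiotensin II, had 327 UMIs in 2 mast cell-like cells on Day 3, 231 in 32 on Day 7 and 798 in 20 on Day 14, and reached 16.1 CPM in T cell-like cells on Day 14. Ren1, the renin gene, had 11 UMIs in all, and Agtr1b and Mas1 had 0.

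Of the 9 other adrenomedullin and calcitonin peptide genes, 6 reached that level. Ackr3, a scavenger receptor that takes up adrenomedullin, was at 434 CPM on Day 3, 160 CPM on Day 7 and 159 CPM on Day 14 in fibroblast-like cells. It was thus highest on Day 3, as Adm was, but level from Day 7 to Day 14, whereas Adm was lower on Day 14. Ramp1, which turns Calcrl into a receptor for calcitonin gene-related peptide, was highest in pericyte-like cells, at 51.2, 33.9 and 104 CPM, and Ramp3 in dendritic cell-like cells, at 422, 237 and 126 CPM. Ramp1 in fibroblast-like cells was at 0.52, 3.9 and 24.9 CPM. Calca reached 66.1 CPM in T cell-like cells on Day 14, Pam 293 CPM in Schwann cell-like cells on Day 14, and Crcp 22.4 CPM in lymphatic endothelial cell-like cells on Day 7. Of the 18 pathway genes with enough UMIs in fibroblast-like cells, 6 were past 2-fold higher on Day 7 than on Day 3 and 2 lower, beside 13.2% and 10.9% of all genes tested, and against 6 and 1 of the 10 genes described above.

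The genes whose pattern was most like that of each of the 10 were sought by the correlation of log2(CPM + 1) over 24 sums of class and day, among 12906 genes. These sums share libraries and depth, and the correlations are descriptions. Edn1 was closest to Tek, Tll1 and Fzd6 (r = 0.749 to 0.793). For Agt the closest genes were Bmp5, Dgkb and Gucy1a1 (r = 0.913 to 0.93). Adm was closest to Enc1, Yipf5 and Copg1 (r = 0.804 to 0.865). For Ece1 the closest genes were Nectin2, Lrrc42 and Mical3 (r = 0.863 to 0.894). Ace was closest to Zhx3, Pamr1 and Mn1 (r = 0.816 to 0.834). For Ednra the closest genes were Cacna1c, Sema5a and Pde3a (r = 0.914 to 0.927). Ednrb was closest to Osbpl11, Rab35 and Tnfrsf21 (r = 0.742 to 0.794). For Agtr1a the closest genes were Ebf2, Bmpr1b and Aoc3 (r = 0.887 to 0.914). Calcrl was closest to Angpt2, Rbpms and Nhsl2 (r = 0.844 to 0.858). For Ramp2 the closest genes were Zfp521, Sema6a and Hspa12b (r = 0.911 to 0.913). Among the 10 themselves the closest pair was Agtr1a with Agt (r = 0.871), followed by Ace with Ramp2 (r = 0.76). With log2(CPM + 10), 13 of the 30 leading genes were shared, and with Spearman's measure 7 were.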

How the data were processed

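Single-cell RNA-Seq of skin wounds was analysed in 3 libraries (Days 3, 7 and 14), made with 3' v3.1 droplet chemistry. The values deposited by the authors are UMI counts per gene and cell barcode, from Cell Ranger 6.0.0 and mm10 per the submitters' processing notes. Reads were not realigned. The 44693 barcodes held 38133650, 120940799 and 112713257 UMIs on Days 3, 7 and 14.

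Cells with at least 200 genes, 500 UMIs and at most 10% mitochondrial UMIs were kept (40492). From these, 3032 likely doublets, scored against simulated ones, were removed at 0.5 of an expected rate of 0.8% per 1000 cells. The libraries were clustered together on 2000 variable genes, 30 principal components and 15 neighbours (Leiden, resolution 1), without the 10 genes or their pathway lists. Classes were named from marker lists. A marker counted where at least 10% of cells held it and its log2 level was at least 1 above the 25% quantile of the clusters. A class needed 3 such markers. The naming rule was adjusted after the clusters were seen: the top genes of a cluster are ranked against the median of the other clusters, and a cluster stays unnamed where a second class reaches 0.8 of the first. The 1 cluster left between Schwann cells and melanocytes was split by cell, an exception to that rule also made after the clusters were seen. Barcodes shared between libraries numbered 43 (Days 3 and 7), 111 (Days 7 and 14) and 19 (Days 3 and 14), and were kept.

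Levels are summed UMIs scaled to CPM by the total of the sum, with exact Poisson intervals, exact conditional binomial intervals for ratios and Clopper-Pearson intervals for shares, all at 95%. A gene at 0 was given a floor of 3 counts per sum. Genes with at least 10 UMIs in both libraries together entered counts past 2-fold. Sums of at least 50 cells were ranked, and clusters with at least 50 cells on both days were compared. All 10 genes are named, as are pathway genes at 10 CPM or more in such a sum and the 3 genes most correlated with each. A single such pathway gene is not reported here. Clusters are described by the 3 genes, of at least 100 CPM, with the highest ratio to other clusters of the class. Ero1a, a hypoxia gene, is listed as Ero1l. The genes and lists were chosen with earlier results of these data known. Ratios and thinning were tested on simulated data. Python 3.11.15, NumPy 2.4.6, SciPy 1.17.1, pandas 2.3.3, scikit-learn 1.9.0, leidenalg 0.10.2 and python-igraph 0.11.9 were used. Promoter sequence is from RefSeq, GRCm38.p6. Alternative scalings, filters, doublet rates, clusterings and thinning depths were tried.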

Additional observations from a re-analysis of the deposited data

Results flagged for a closer look

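Ace was higher on Day 14 than on Day 7 in fibroblast-like cells, at 1.44 times, and in 5 other classes the counting interval of this ratio excluded 1, in 3 of them in the same direction and in 2 in the opposite one. The ratio was 2.66 in T cell-like cells (1.06 to 7.54, from 18 and 7 UMIs), 2.68 in lymphatic endothelial cell-like cells (1.03 to 8.19, 19 and 6 UMIs) and 3.5 in pericyte-like cells (1.33 to 11.6, 27 and 5 UMIs). It was 0.387 in mesenchymal cell-like cells (0.182 to 0.946, 50 and 8 UMIs) and 0.287 in epithelial cell-like cells (0.168 to 0.51, 58 and 19 UMIs). With 1 library per day the difference between classes was not tested. How far free RNA from fibroblast-like cells enters the Ace ratios of the other classes was not tested either.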

How the results depend on the processing

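No paired analysis was possible because each day had 1 library. No library could be left out for the same reason, and depth limits Agt, with 535 UMIs in all, and the Day 3 vessel classes, with 10 cells each. The 76 ratios between days were recomputed under 13 alternatives, which gave 962 values. Of these values, 797 stayed within the counting interval of their ratio, 159 left it and 6 reversed. The 6 belonged to 4 of the 76 ratios. Only a value whose interval excluded a ratio of 1 could be counted as reversed, so the others may include changes of direction. The log2 ratio of Ece1 over all cells from Day 7 to Day 14 became 0.019 with size factors by the median of ratios and 0.33 with the mean of each cell's CPM, and that of Adm from Day 3 to Day 7 became 0.063 with the latter. The Edn1 ratio in pericyte-like cells became -0.47 with doublets removed at the full expected rate and -1.27 with classes set per cell. With each library clustered alone, Ednrb in fibroblast-like cells (Day 7 over Day 3) became -1.43 and Ece1 in endothelial over lymphatic endothelial cell-like cells on Day 7 became -0.02. The 28 ratios between classes gave 329 recomputed values, of which 286 stayed within their interval, 42 left it and that 1 reversed. The 8 counts of genes past 2-fold gave 117 recomputed values, of which 94 stayed within 1.5 times. From Day 7 to Day 14 the count in fibroblast-like cells was 1 in place of 2 without the 50 most abundant genes, with the median of ratios, with up to 20% mitochondrial UMIs, at the full doublet rate, with classes set per cell and with a minimum of 50 CPM. Over all cells it was 4 with the median of ratios, 5 with the mean of each cell's CPM and 1 with the minimum of 50 CPM. In macrophage-like cells it was 1 with the mean of each cell's CPM, with doublets kept, at resolution 0.5 and with classes set per cell, and 0 at up to 5% mitochondrial UMIs and with the minimum of 50 CPM. In pericyte-like cells it was 1 with the mean of each cell's CPM, with at least 500 genes per cell and with no minimum beyond 1 UMI, and 0 at the full doublet rate and with the minimum of 50 CPM. From Day 3 to Day 7 that minimum, which leaves fewer genes to count, gave 3 over all cells, 3 in fibroblast-like and 0 in macrophage-like cells. Leaving out the 50 most abundant genes moved the median log2 ratio of all genes over all cells from -0.05 to 0.2 between Days 3 and 7. Except for the fewer genes counted, the cause of these moves was not tested.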
